A study of Mus musculus with 15 samples.

Results

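Transcripts of immunoglobulin chains and of B cell genes were followed through 15 libraries of haematopoietic stem cells (HSC) from mouse bone marrow. The genes were 9 listed immunoglobulin constant region, plasma cell and B cell genes, and they were chosen from measured values, since the rise of at least some of them between young and aged HSC was known when the list was drawn up. Of these 9 genes, 8 had a row in the deposited table of 16154 genes, and Cd79a is not analysed here. The 8 members comprise 6 transcripts made in bulk by plasma cells (Igkc, Iglc1, Ighm, Ighg2b, Igha and Jchain) and 2 of B cells (Cd79b and Ebf1). The name plasma cell transcripts is used for these 6 genes as a group and says nothing of the cells they came from here. RNA was taken from Lin-Sca-1+cKit+CD150+CD48- HSC of female C57BL/6 mice, with 5 libraries in each of 3 groups. The authors state that each library came from an individual mouse. Young mice were 6 to 12 weeks old. Aged mice were 20 to 24 months old, and the remaining group consisted of aged mice that had drunk water with nicotinamide riboside (NR, a precursor of NAD) at 3 mg/ml for 2 months. Between 20000 and 25000 cells were used for each library.

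Antibodies are built from pairs of heavy and light chains. A B cell carries its antibody on the surface, where Cd79a and Cd79b pass its signal into the cell, and the transcription factor Ebf1 commits progenitors to the B cell lineage. A plasma cell is the secreting end stage of that lineage: it devotes much of its RNA to immunoglobulin, adds the joining chain Jchain to secreted IgM and IgA, and can persist for long periods in the bone marrow. HSC stand before this commitment and are not a known source of antibody. Before sorting, marrow cells had been depleted with antibodies to B220, Mac-1, Gr-1 and Ter119. B220 is the only antigen of B cells among these 4, and it is low or absent on most plasma cells.

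Values are read counts scaled to a common library size (CPM, on TMM effective totals), from the authors' UMI-filtered read counts. Library totals ran from 764119 counts in Aged 2 to 13318989 in Aged 3, so that 3 counts, the limit below which a level was not told from absence, were worth between 0.225 and 3.93 CPM. The libraries Young 1 and Young 5 held 104 and 108 CPM of 4 Y-linked genes although they are labelled female, against at most 3.16 CPM elsewhere, and several results that involve young HSC are also given without them. Both also held the female transcript Xist, at 436 and 482 CPM, beside 296 to 422 CPM in aged libraries. Whether each of the 2 holds cells of 1 mouse, as stated, was not tested. An HSC list of 11 genes was followed: Kit, which encodes the stem cell factor receptor, had group means of 360.3 CPM in young, 323 in aged and 385 in NR-treated HSC. The summed level of the list spanned 1593 to 2191 CPM over the 15 libraries. The list also holds Cd48 and Flt3, which mark cells other than HSC, so its sum is no check of identity. Single genes of this list did differ: Ly6a, Slamf1 and Procr passed as higher and Flt3 as lower in aged than in young HSC, 4 of 11. Over all genes, 9.68% passed as higher there and 9.63% as lower. Cd48, which marks cells that the gate leaves out, ranged from 3.51 to 35.0 CPM in young, 7.78 to 40.2 in aged and 1.19 to 5.45 CPM in NR-treated libraries. It was lower in NR-treated than in aged HSC without overlap, by a log2 fold change of -2.83 (SE 0.56, adjusted p = 0.00776, edgeR), and Slamf1 passed there too at -0.51 (SE 0.14, adjusted p = 0.0288). The part of cells outside the gate in the values of the members was not tested. In bulk RNA of this kind, fewer cells of a type and less RNA per cell cannot be told apart. The members are not replicates of each other, since a single plasma cell carries several of these transcripts at once.

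Igkc, the constant region of kappa light chains (chromosome 6, 70726435 to 70726966, plus strand, GRCm38), gave the most counts of the members in aged HSC. Young libraries 1 to 5 held 78.6, 16.1, 330.5, 57.0 and 71.5 CPM of Igkc. In Aged 1 to 5 it stood at 1641, 1937, 3265, 3153 and 386 CPM. In NR-treated libraries 1 to 5 it stood at 70.6, 42.0, 13.6, 17.5 and 37.9 CPM. Every aged library lay above every library of the other 2 groups, although Aged 5 came close to Young 3, while young and NR-treated libraries overlapped. The fitted log2 fold change was 4.24 (SE 0.65) from Young to Aged, a description because this contrast stood behind the choice of genes, and 5.21 without Young 3. From Aged to Aged+NR it was -5.82 (SE 0.70, adjusted p = 0.000159, edgeR quasi-likelihood test, Benjamini-Hochberg over 16154 genes). NR-treated against young HSC gave -1.57 (SE 0.62) with an adjusted p of 0.17. The contrasts share libraries with each other, so the 3 values of each gene are not independent.

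The lambda light chain gene Iglc1 (chromosome 16, 19061618 to 19062071, minus strand) belongs to a small family, and its sequence is shown to tell it from its relatives. Iglc1 is set beside Iglc2 and Iglc3 over the last 90 coding bases, read 5′ to 3′ from GRCm38 on the minus strand at chr16:19061755-19061844, chr16:19198539-19198628 and chr16:19065368-19065457, with capitals at bases that differ from Iglc1.
Iglc1: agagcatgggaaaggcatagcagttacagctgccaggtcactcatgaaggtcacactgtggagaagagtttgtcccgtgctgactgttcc
Iglc2: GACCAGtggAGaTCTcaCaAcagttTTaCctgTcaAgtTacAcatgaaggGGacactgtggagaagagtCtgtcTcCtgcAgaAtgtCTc
Iglc3: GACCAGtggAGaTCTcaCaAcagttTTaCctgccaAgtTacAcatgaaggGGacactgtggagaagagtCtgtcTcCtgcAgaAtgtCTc
Iglc2 differed from Iglc1 at 29 of 90 bases and Iglc3 at 28, whereas Iglc2 and Iglc3 differed from each other at 1. Over whole transcripts, no stretch of 72 bases, the length of the cDNA read, was shared between Iglc1 and either relative, and 8 of 387 such stretches were shared between Iglc2 and Iglc3. Counts of Iglc2 and Iglc3 are therefore less certain than those of Iglc1. A gene on the opposite strand, 2010309G21Rik, overlaps Iglc1 and has no row in the table, and Gm30211 overlaps Igkc on the same strand.

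Iglc1 followed Igkc in direction on far fewer counts. Young libraries 1 to 5 held 2.11, 0.402, 17.1, 7.98 and 0 CPM of Iglc1, and Aged 1 to 5 held 148, 99.9, 242, 66.5 and 3.82 CPM. NR-treated libraries 1 to 5 held 0.282, 2.68, 0.778, 0.731 and 3.00 CPM. Aged 5 lay below Young 3 and Young 4 but above every NR-treated library. The log2 fold change from Young to Aged was 4.48 (SE 0.81), with 5.49 when Young 3 was left out and 3.77 without both libraries with Y-linked counts, and that from Aged to Aged+NR was -6.15 (SE 0.93, adjusted p = 0.00123, edgeR). NR-treated and young HSC differed by -1.67 (SE 1.19, adjusted p = 0.509). Iglc1 made up 0 to 12.3% of the Igkc and Iglc1 counts in young, 0.978 to 8.27% in aged and 0.398 to 7.33% in NR-treated libraries, so the share of this lambda gene overlapped between all groups. The 0 in Young 5 came from 265 light chain counts, which allows a share of up to 1.43% (Wilson 95% limit, counting error only).

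**Figure D1:**
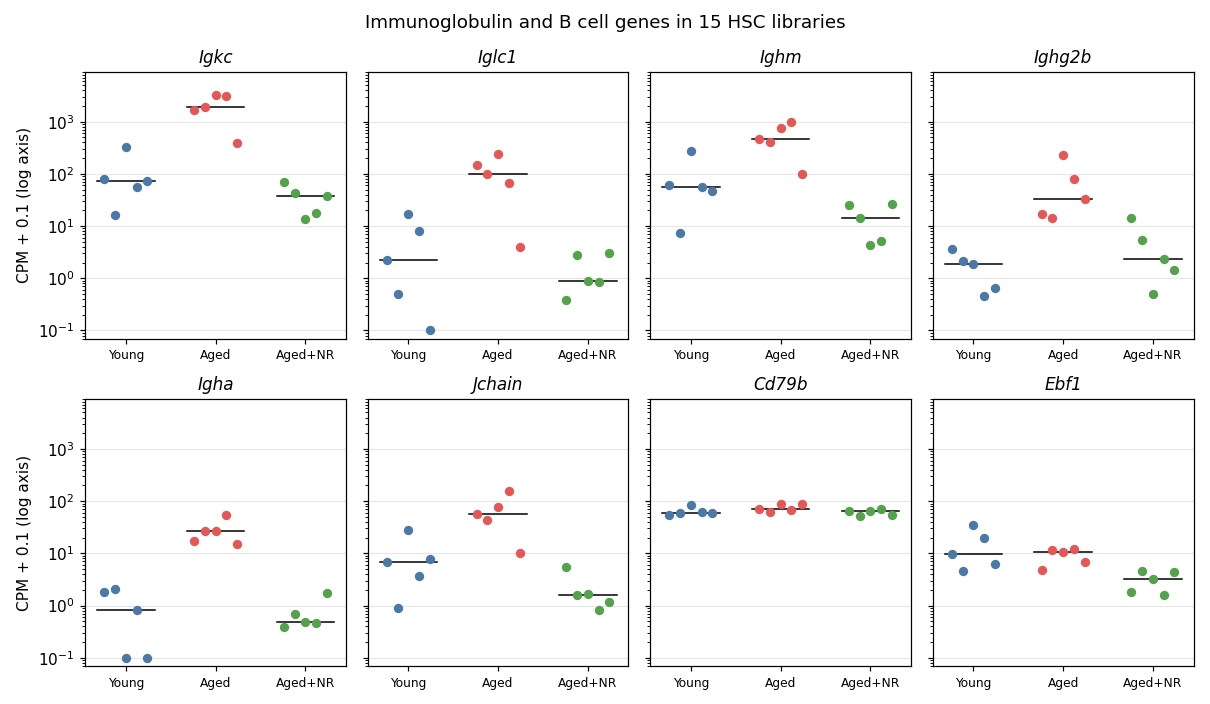
Level of each of the 8 members in every library, as CPM + 0.1 on a log axis, with the 5 libraries of each group in the order of their replicate number and a line at the group median. Igkc, Iglc1, Ighm, Ighg2b, Igha and Jchain stand highest in aged HSC, with medians of 1937 CPM for Igkc and 26.9 CPM for Igha, whereas Cd79b lies between 52.2 and 88.8 CPM in all 15 libraries.

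Among the heavy chains, Ighm encodes the chain of IgM, the first class that a B cell makes and the only one in the list that needs no class switch (chromosome 12, 113418558 to 113422730, minus strand). Its level was 61.8, 7.23, 273, 56.2 and 46.1 CPM in Young 1 to 5, and 467, 405, 756, 988 and 99.8 CPM in Aged 1 to 5. NR-treated libraries 1 to 5 held 25.1, 14.0, 4.28, 5.11 and 26.1 CPM. Young 3 lay above Aged 5, and every NR-treated library lay below every aged one. The log2 fold change was 2.63 (SE 0.64) from Young to Aged, 3.66 without Young 3, and -5.14 (SE 0.74, adjusted p = 0.00102) from Aged to Aged+NR by edgeR. Against young HSC, NR-treated HSC were lower, with a log2 fold change of -2.51 (SE 0.70, adjusted p = 0.0457, edgeR), and this call was lost in 12 of 23 alternatives. Without Young 3, the library with the highest Ighm of its group, the change was -1.48 with an adjusted p of 0.202 by edgeR, and with the replicate number as a block it was -1.91 with an adjusted p of 0.153. Leaving out any 1 of Young 1, Young 4, Aged 1, Aged 2, Aged 3 or the 5 NR-treated libraries also took the adjusted p over 0.05, to between 0.0518 and 0.117 by edgeR, while without both libraries with Y-linked counts it was 0.0477.

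Ighg2b, the heavy chain of the switched class IgG2b (chromosome 12, 113302965 to 113307933, minus strand), had the largest fitted rise of the members between young and aged HSC in the fit of all libraries. Young 1 to 5 held 3.51, 2.01, 1.80, 0.363 and 0.539 CPM of Ighg2b, which rest on 1 to 10 counts a library, and Aged 1 to 5 held 16.8, 14.3, 226, 80.4 and 32.9 CPM. NR-treated libraries 1 to 5 held 14.1, 5.37, 0.389, 2.19 and 1.36 CPM. All aged libraries were above all others, but NR-treated library 1 lay just under Aged 2. The log2 fold change from Young to Aged was 5.59 (SE 0.86), and 4.53 without Aged 3. From Aged to Aged+NR it was -3.98 (SE 0.72, adjusted p = 0.00467, edgeR), between -2.93 without Aged 3 and -4.98 without NR-treated library 1. Of the immunoglobulin members, Ighg2b alone had a positive estimate for NR-treated against young HSC, 1.61 (SE 1.06) with an adjusted p of 0.465, and it was 0.60 without NR-treated library 1. Its transcript shares 12 of 1043 stretches of 72 bases with Ighg2c, so a small part of its reads could stem from either gene.

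Igha encodes the heavy chain of IgA, the class of mucosal secretions (chromosome 12, 113254830 to 113260236, minus strand). Its levels were 1.75, 2.01, 0, 0.726 and 0 CPM in Young 1 to 5. Aged 1 to 5 held 16.8, 27.2, 26.9, 53.7 and 15.1 CPM, and NR-treated libraries 1 to 5 held 0.282, 0.596, 0.389, 0.365 and 1.63 CPM. Aged libraries stood apart from both other groups, which were near the limit of detection with 12 counts of Igha in all young libraries together and 11 in all NR-treated ones. The log2 fold change was 4.96 (SE 0.55) from Young to Aged and -5.28 (SE 0.55) from Aged to Aged+NR, where leaving out NR-treated library 5 gave -5.99. NR-treated and young HSC differed by -0.32 (SE 0.84), with alternatives from -1.02 to 0.16, and a difference was not detectable at this depth. Igha passed the authors' filter on low values through aged libraries alone and so had to be highest there, for which reason its changes are a description without a test, while the other 7 members would have passed without them.

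Jchain, the joining chain of secreted IgM and IgA (chromosome 5, 88519809 to 88527891, minus strand), stood at 6.67, 0.804, 28.3, 3.63 and 7.82 CPM in Young 1 to 5. Aged 1 to 5 held 57.5, 42.8, 77.3, 154 and 10.0 CPM of Jchain, and NR-treated libraries 1 to 5 held 5.37, 1.49, 1.56, 0.731 and 1.09 CPM. As for Ighm, Young 3 exceeded Aged 5, whereas the aged and NR-treated libraries did not overlap. The log2 fold change of Jchain was 2.94 (SE 0.62) from Young to Aged, and 3.82 without Young 3. From Aged to Aged+NR it was -5.02 (SE 0.74, adjusted p = 0.00106, edgeR), and -5.80 without NR-treated library 1. The estimate for NR-treated against young HSC was -2.09 (SE 0.83, adjusted p = 0.182), and -1.21 without Young 3. By the likelihood ratio test alone among the alternatives, that last comparison passed, with an adjusted p of 0.0372.

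The B cell members behaved differently from the secreted chains in level, though not always in direction. Cd79b, a signalling chain of the B cell receptor (chromosome 11, 106311341 to 106314762, minus strand), stood at 54.4, 59.9, 84.0, 61.3 and 59.1 CPM in Young 1 to 5. Aged 1 to 5 held 69.5, 62.3, 88.8, 67.7 and 87.8 CPM, and NR-treated libraries 1 to 5 held 63.3, 52.2, 63.8, 71.2 and 53.6 CPM. The 3 groups overlapped throughout. From Young to Aged, Cd79b changed by 0.26 (SE 0.14) on the log2 scale. It was -0.32 (SE 0.14, adjusted p = 0.147, edgeR) from Aged to Aged+NR and -0.07 (SE 0.14, adjusted p = 0.861) between NR-treated and young HSC. None of the 23 alternatives carried the last 2 past the threshold.

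Ebf1, the transcription factor of B lineage commitment (chromosome 11, 44617317 to 45008091, plus strand), was low in every group. Young 1 to 5 held 9.47, 4.42, 34.1, 19.2 and 6.20 CPM, Aged 1 to 5 held 4.62, 11.7, 10.5, 12.1 and 6.83 CPM, and NR-treated libraries 1 to 5 held 1.69, 4.47, 3.11, 1.46 and 4.36 CPM. Young and aged libraries overlapped, while the highest NR-treated library lay just under the lowest aged one. The fitted change of Ebf1 from Young to Aged was -0.70 (SE 0.44) on the log2 scale. From Aged to Aged+NR it was -1.53 (SE 0.50, adjusted p = 0.063, edgeR), and the adjusted p fell under 0.05 in 6 of 22 alternatives. NR-treated HSC held less Ebf1 than young HSC, with a log2 fold change of -2.23 (SE 0.50, adjusted p = 0.0112, edgeR), a call present in all 22 alternatives. The gene Gm12158 lies on the opposite strand within Ebf1 and has no row in the table.

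**Figure D2:**
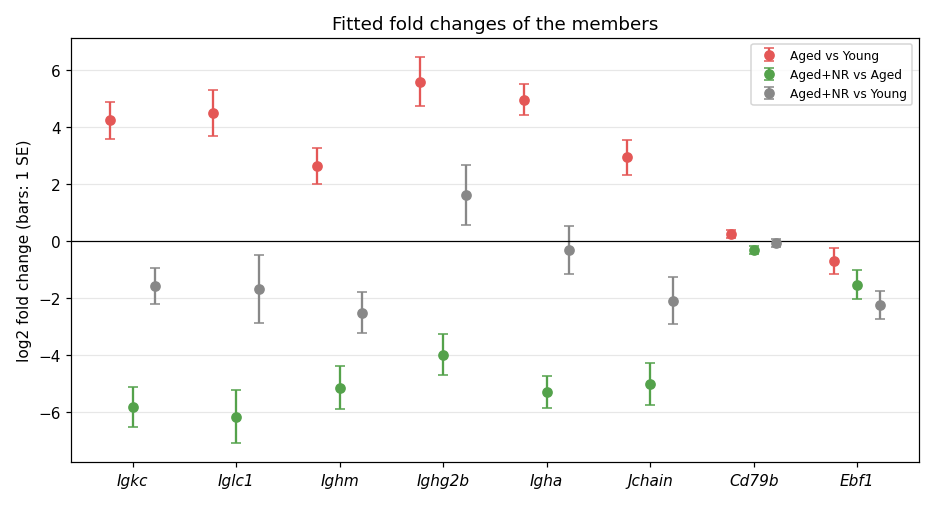
Fitted log2 fold change of each member in the 3 comparisons, with bars of 1 SE from the edgeR fit of all 15 libraries. Igkc, Iglc1, Ighm, Ighg2b, Igha and Jchain lie between 2.63 and 5.59 for Aged against Young and between -6.15 and -3.98 for Aged+NR against Aged, while Cd79b stays within 0.32 of 0.

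Set against all genes, 6 of the 8 members passed the test as higher in aged than in young HSC, as 9.68% of the 16154 genes did, and 0 passed as lower, where the background was 9.63%. Nothing is read from that count, because this contrast served to choose the genes. From Aged to Aged+NR, 6 of 8 were called lower, namely the 6 plasma cell transcripts, against 4.18% of all genes, and 0 were called higher against 3.88%. Igha, which passed the filter through aged libraries alone, is 1 of the 6, and of the other 7 members 5 passed. All 8 had an unadjusted p under 0.05 there by edgeR, and the likelihood ratio test and DESeq2 each called 7, Igha included. For NR-treated against young HSC, Ighm and Ebf1 passed as lower, 2 of 8 against 1.91%, and 0 passed as higher against 2.56%. Igkc, Ighg2b and Igha, 3 of 8, had no overlap between young and aged libraries, against 12.4% of all genes. Aged and NR-treated libraries did not overlap for 7 of 8, all but Cd79b, against 8.6%, and young and NR-treated libraries overlapped for each of the 8, against a background of 4.74% without overlap. The median log2 fold change over the members was 3.59, -5.08 and -1.62 in the 3 comparisons in that order, beside -0.03, 0.02 and -0.0046 over all genes. These counts describe genes chosen with the aged libraries in view and are no independent evidence. Scaling by library totals alone moved the median of all genes to -0.16 for Aged against Young and to 0.16 for Aged+NR against Aged, and the share of higher genes among the calls from 50.1 to 29.1% and from 48.1 to 78.4%, but it left the called members the same in number, 6 for Aged+NR against Aged and 2 for Aged+NR against Young.

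Plasma cell and B cell transcripts were then compared within each library, where no scaling enters. The measure was the summed counts of Igkc, Iglc1, Ighm, Ighg2b, Igha and Jchain over those of Cd79b and Ebf1, and as a score over chosen genes it was not tested. Young 1 to 5 held 2.42, 0.444, 5.51, 1.56 and 1.93 plasma cell counts for each B cell count. In Aged 1 to 5 the ratio was 31.7, 34.2, 46.2, 56.3 and 5.79, and in NR-treated libraries 1 to 5 it was 1.78, 1.17, 0.314, 0.367 and 1.23. Every aged library exceeded every other library, with Aged 5 just above Young 3, and the young and NR-treated ranges overlapped. On the log2 scale, with 0.5 added to each sum, the means were 0.83 ± 1.31 in young, 4.79 ± 1.31 in aged and -0.35 ± 1.12 in NR-treated HSC (SD, n = 5). Of these sums, the numerator changed more. The plasma cell sum had medians of 126, 2526 and 66.2 CPM in young, aged and NR-treated HSC. The B cell sum had medians of 65.3, 79.8 and 65.0 CPM in that order. Most of the B cell sum is Cd79b, so it does not show the course of Ebf1, whose means were 14.7, 9.14 and 3.02 CPM. Within groups Cd79b varied little with Ebf1 (Pearson's r = 0.14). Of 20 other B cell genes, 4 passed as lower and 2 as higher from Aged to Aged+NR, against 4.18 and 3.88% of all genes. The ratio is therefore no measure of plasma cells against B cells as a whole. With Ighm and Igkc left out of the numerator, the mean log2 ratios were -2.53 ± 0.85, 1.41 ± 1.22 and -3.12 ± 1.12, in the same order of groups. With Ebf1 alone below the line, the means were 3.58 ± 0.84, 8.05 ± 1.09 and 4.10 ± 1.19, so that NR-treated HSC then stood above young HSC rather than below.

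**Figure D3:**
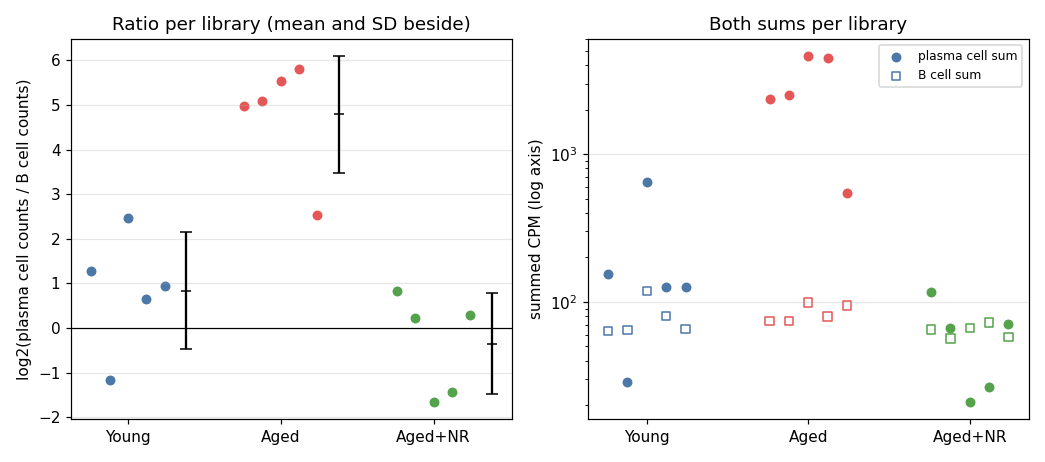
Left, log2 ratio of plasma cell to B cell counts in each library, with the group mean and SD beside the points; right, both sums as CPM on a log axis, filled circles for plasma cell and open squares for B cell transcripts. The aged libraries lie between 2.53 and 5.81 on the left, above the young (-1.17 to 2.46) and NR-treated (-1.66 to 0.83) libraries. The squares on the right differ little between groups, but they are mostly Cd79b and do not show the course of Ebf1 or other B cell genes.

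As a share of all RNA counted, the 6 plasma cell transcripts made up 0.00284 to 0.0683% of counts in young libraries, 0.0495 to 0.421% in aged libraries and 0.00217 to 0.0118% in NR-treated libraries. They were thus a small share of all counts even where they were highest. Their summed level was not low beside single gene lists, with an aged median of 2526 CPM against at most 2191 CPM for the 11 HSC genes in any library. The make-up of the immunoglobulin counts also varied. Ighm took 31.0 to 49.7% of the Ighm and Igkc counts in young libraries but 17.3 to 23.9% in aged libraries, without overlap, and 22.6 to 40.9% in NR-treated libraries, which overlapped both. This compares the same share between groups, not levels between genes. For each 100 Igkc counts there were 5 to 10.9 of Jchain in young libraries, 2.21 to 4.90 in aged libraries and 2.88 to 11.4 in NR-treated libraries. The lowest young value rests on 2 Jchain counts in Young 2, and the highest NR-treated value on 4 in library 3. The narrow gap between young and aged ranges is therefore not read as a difference.

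The switched classes Ighg2b and Igha together made up 2.92% of the 1163 heavy chain counts (Ighm, Ighg2b and Igha) of young HSC, 18.6% of 22792 in aged HSC and 26.1% of 348 in NR-treated HSC. Young 1, 3, 4 and 5 had 7.85, 0.653, 1.90 and 1.16%, whereas Young 2 had 35.7% on 28 counts (Wilson 95% interval 20.7 to 54.2%, counting error only). Aged libraries 1 to 5 had 6.69, 9.30, 25.1, 11.9 and 32.5%. NR-treated libraries 1 to 5 had 36.4, 29.9, 15.4, 33.3 and 10.3%, on 13 to 140 counts. Aged and NR-treated ranges overlapped, and Young 2 crossed both, so the pooled shares do not separate the groups library by library. The switched classes Ighg2c and Ighg3 are left out of these shares. Ighg2c alone reached 82 counts in a young library, beside 34 of Ighg2b and Igha in all young libraries together, and 899 in an aged one. The low young share thus holds for the 3 listed heavy chain genes only. Of Ighg2b and Igha, the leading one changed from library to library: Aged 3 held 22.4% Ighg2b and 2.66% Igha, while Aged 2 held 3.20% Ighg2b and 6.10% Igha.

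**Figure D4:**
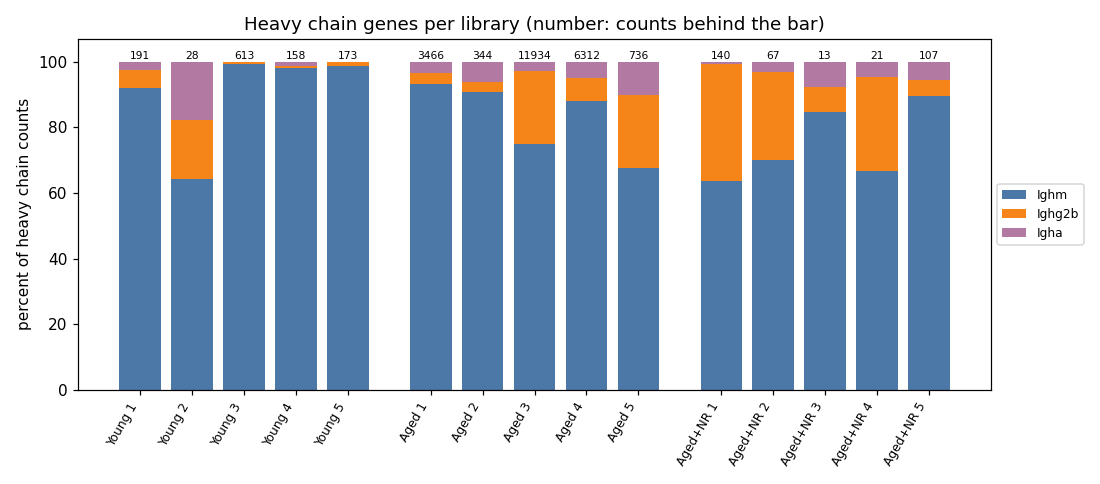
Share of Ighm, Ighg2b and Igha among the summed counts of these 3 genes in each library, in percent, with the number of counts behind each bar above it. Ighm exceeds 90% in Young 1, 3, 4 and 5 and ranges from 67.5 to 93.3% in aged libraries, and the bars of NR-treated libraries rest on 13 to 140 counts.

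Other immunoglobulin genes of the table were described on fewer counts. Of 8 further constant region genes, 4 had a row. Ighg3, the chain of IgG3, had means of 0.161 CPM in young, 11.6 in aged and 0.326 in NR-treated HSC, with 2 counts over all young libraries, and like Igha it passed the authors' filter through aged libraries alone, so its values are a description. Iglc2 had means of 5.46, 31.8 and 1.39 CPM and Ighg2c, the chain of IgG2c, 7.80, 28.9 and 0.967 CPM. In aged against young HSC, edgeR called Ighg3 and Iglc2 higher, 2 of 4 against 9.68% of all genes, but the filter makes the call of Ighg3 no test. The likelihood ratio test and DESeq2 each called 1. When any 1 of 9 libraries was left out, edgeR called 1 (Young 1, 2, 4 or 5, Aged 3 or 4, NR-treated 2, 3 or 4). It called 3 without Young 3, and 1 without both libraries with Y-linked counts. In NR-treated against aged HSC, 3 of 4 were called lower, against 4.18% of all genes. Ighg3 is among them, and its call is again no test. Of the 3 genes that would have passed the filter without aged libraries, Ighg2c and Iglc2 were called. Their log2 fold changes were -4.95 (SE 1.23, adjusted p = 0.0203) and -4.50 (SE 1.09, adjusted p = 0.0188) by edgeR. The last 2 calls were lost without Aged 3 or without NR-treated library 3. Iglc3, whose means were 5.79, 5.85 and 0.658 CPM, did not pass in any of the 3 comparisons. Between NR-treated and young HSC edgeR called 0 of the 4, 1 had an unadjusted p under 0.05, and the likelihood ratio test and DESeq2 called 0, while edgeR called 1 without both libraries with Y-linked counts. The median log2 fold change over the 4 was 2.44, -4.73 and -2.29 in the 3 comparisons. Of the variable segments, which are joined anew in each B cell, Iglv1 and Ighv6-4 had a row. Iglv1 rested on 1.21 to 24.2 CPM in aged libraries, at most 1.45 CPM in young and at most 0.847 CPM in NR-treated libraries, with a log2 fold change of -4.68 (SE 0.80) from Aged to Aged+NR, untested because it too passed the filter through aged libraries alone. Ighv6-4 did not follow: its means were 0.574, 0.554 and 1.58 CPM, and the estimate from Aged to Aged+NR was 1.14 (SE 0.68, adjusted p = 0.303, edgeR).

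Plasma cell genes outside the immunoglobulin loci changed little by their median, while some of them with few counts changed far more. Of 20 listed genes, 17 were in the table. Their summed level was 677 to 838 CPM in young, 805 to 1006 in aged and 621 to 783 CPM in NR-treated libraries. Every aged library thus lay above every NR-treated one. From Aged to Aged+NR, single log2 fold changes ran from -4.18 to 0.07. Slamf7 was at -4.01 (SE 1.12) and Pou2af1 at -3.02 (SE 1.12), and Pou2af1 did not pass. Derl3, at -2.66 (SE 0.92), would not have passed the authors' filter without aged libraries, so its value is a description. Xbp1, the transcription factor that expands the secretory machinery and is also active in other cells, had means of 96.0, 165 and 97.8 CPM. Its log2 fold change from Aged to Aged+NR was -0.76 (SE 0.19, adjusted p = 0.0208, edgeR). Xbp1, Eaf2, Fam46c, Fkbp11 and Creld2 passed as higher in aged than in young HSC, 5 of 17 against 9.68% of all genes. None of the list passed as lower, against 9.63% of all genes, and the median over the list was 0.26. The count of higher genes was 3 without Aged 3, and 3 without both libraries with Y-linked counts, when Xbp1 and Eaf2 were no longer called. Mzb1, a chaperone for immunoglobulin assembly, fell from Aged to Aged+NR with Xbp1, Slamf7 and Fam46c, 4 of 17 against 4.18% of all genes, with 0 higher and a median of -0.28. Those calls rest on single libraries: without Aged 4, Aged 5 or NR-treated library 4 only Mzb1 was called, and 2 genes were called without Aged 3 or NR-treated library 1 or 2. Mzb1 had means of 4.82 CPM in young, 6.98 in aged and 0.334 in NR-treated HSC, and its log2 fold change was -4.18 (SE 0.86, adjusted p = 0.00866, edgeR) from Aged to Aged+NR. Against young HSC, Mzb1 and Sdc1, the plasma cell surface marker syndecan-1, passed as lower in NR-treated HSC, 2 of 17 against 1.91% of all genes. The median was -0.11, and 0 passed without NR-treated library 3 or 4. Sdc1 had means of 3.68, 2.51 and 1.17 CPM, so this marker did not follow the immunoglobulin genes upward with age. The genes of the list with the most counts, Sec11c, a subunit of the signal peptidase, and Herpud1, a gene of the endoplasmic reticulum stress response, had means of 238, 259 and 231 CPM and of 130, 155 and 120 CPM and did not pass in any comparison. Neither did Tnfrsf13b, a receptor for B cell survival factors, at 64.4, 61.3 and 51.0 CPM. Eaf2, Fam46c, Mzb1, Slamf7 and Sdc1 are named because they passed, and Pou2af1 and Derl3 for their estimates, after their values were seen.

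B cell genes were described on 20 of 23 listed genes, and some of them are also active in stem and progenitor cells. Btk and Cd37 were lower in aged than in young HSC and higher in NR-treated than in aged HSC. Btk, a kinase of B cell receptor signalling, had means of 81.4 CPM in young, 37.1 in aged and 56.0 in NR-treated HSC, with a log2 fold change of 0.57 (SE 0.13, adjusted p = 0.0162, edgeR) from Aged to Aged+NR. Cd37, a membrane tetraspanin, had means of 32.7, 14.3 and 20.5 CPM and a change of 0.57 (SE 0.16, adjusted p = 0.0315, edgeR) in that contrast. Other genes of the list went in the opposite direction. Ms4a1, which encodes CD20, had means of 2.75, 2.59 and 0.288 CPM, and Ly6d, an antigen of committed lymphoid progenitors and B cells, had 11.2, 12.6 and 0.495 CPM. From Aged to Aged+NR, 4 of 20 passed as lower against 4.18% of all genes, Ms4a1, Ly6d and Fcrla among them. In that contrast 2 passed as higher against 3.88% of all genes, with a median log2 fold change of -0.22. The 6 calls of that contrast became 0 without Aged 3, 1 without NR-treated library 3 or 4, 2 without NR-treated library 2 and 3 without Aged 4 or NR-treated library 1 or 5. Btk, Cd37, Ralgps2, H2-Ob and Tnfrsf13c passed as lower in aged than in young HSC, 5 of 20 against 9.63% of all genes. There 0 passed as higher against 9.68%, the median was -0.52, and Ms4a1 and Ly6d did not pass. Against young HSC, 5 of 20 passed as lower in NR-treated HSC against 1.91% of all genes, Btk, Bank1, Cd37 and Tnfrsf13c among them. There 0 passed as higher against 2.56%, and the median was -1.14. Tnfrsf13c, the receptor for the survival factor BAFF, had means of 16.3, 5.59 and 6.69 CPM, and Bach2, a transcription factor that holds back plasma cell formation, had 20.0, 22.1 and 21.8 CPM and did not pass in any comparison. Ms4a1, Ly6d, Fcrla and Bank1 are named because they passed, after their values were seen.

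Precursor genes of the B lineage were near the limit of detection. Their summed level, over 7 of 9 listed genes, was 6.03 to 98.8 CPM in young, 11.4 to 42.9 in aged and 3.28 to 13.9 CPM in NR-treated libraries, with Young 3 the highest, then Aged 3, then Young 4 at 41.4 CPM. Igll1, part of the surrogate light chain, had 1 count over all NR-treated libraries and up to 8.03 CPM in aged libraries, each of which held some, and it alone passed from Aged to Aged+NR, as lower, a call that was lost without Aged 3. Dntt, the enzyme that adds bases at the joints of antibody genes, was listed at 0 in every NR-treated library, and Igll1 and Dntt passed as lower against young HSC, where 0 passed without Young 3, Young 4 or any 1 of the NR-treated libraries. Vpreb1, Vpreb3, Il7r and Lef1 did not pass in any comparison of all 15 libraries, with Vpreb1 at means of 6.67, 5.17 and 3.58 CPM. Between young and aged HSC edgeR called 0 of the 7, 1 had an unadjusted p under 0.05, and the likelihood ratio test and DESeq2 called 0. Without both libraries with Y-linked counts, edgeR called 1 there, Rag1, as lower, and 2 from Aged to Aged+NR, Igll1 and Dntt. The median log2 fold change over the 7 was -0.59, -1.92 and -2.72 in the 3 comparisons. Over all genes, 4.18% passed as lower from Aged to Aged+NR and 1.91% as lower in NR-treated than in young HSC.

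Markers of other blood cells were counted in the same libraries. Over all genes, 9.68% passed as higher and 9.63% as lower from Young to Aged. From Aged to Aged+NR 4.18% passed as lower, and 2.56% passed as higher in NR-treated than in young HSC. The summed level of 6 erythroid genes was 125 to 2624 CPM in young, 3123 to 6461 in aged and 65.7 to 548 CPM in NR-treated libraries, and all 6 passed as lower from Aged to Aged+NR, with 3 higher from Young to Aged. The latter count was between 2 and 5 when any 1 library was left out and 1 without both libraries with Y-linked counts. The 9 granulocyte genes summed to 23.7 to 5316 CPM in young, 1043 to 1674 in aged and 15.7 to 167 CPM in NR-treated libraries, and 8 of 9 passed as lower from Aged to Aged+NR. From Young to Aged edgeR called 0 of the 9 granulocyte genes, with a median log2 fold change of -0.09, 0 at an unadjusted p under 0.05 and 0 called by the likelihood ratio test or DESeq2, but without Young 3 edgeR called all 9 as higher in aged HSC. The 8 calls after NR became 3 without NR-treated library 3 or 4. For 9 genes of monocytes and macrophages the sums were 404 to 2546, 698 to 1622 and 327 to 502 CPM. From Aged to Aged+NR 3 of 9 passed as lower, 1 without Aged 3 and 0 without NR-treated library 3 or 4. Adgre1 is 1 of these 3 and passed the authors' filter through aged libraries alone, so its call is no test. From Young to Aged 1, Vcam1, passed as lower, with a median of -0.06. Vcam1 was no longer called in 11 of the 16 fits that left out 1 library or both libraries with Y-linked counts. Without Young 3 the calls were Lyz2 and Adgre1, both higher, where the call of Adgre1 is again no test. Against young HSC, 5 of 6 erythroid, 6 of 9 granulocyte and 0 of 9 monocyte genes passed as lower in NR-treated HSC. Over all genes 1.91% did. Their median log2 fold changes were -3.18, -4.46 and -1.46, while the young and NR-treated sums overlapped for each list. The likelihood ratio test called 5, 8 and 3 of these genes and DESeq2 5, 4 and 2. T cell genes summed to 7.82 to 72.3, 19.3 to 36.3 and 14.6 to 22.6 CPM, and edgeR called 0 of 7 in any comparison, with 1, 1 and 2 at an unadjusted p under 0.05 in the 3 comparisons and 0, 1 and 1 called by both the likelihood ratio test and DESeq2. Platelet genes summed to 393 to 454, 435 to 768 and 256 to 993 CPM. The 3 genes of natural killer cells summed to 96.1 to 147, 196 to 243 and 136 to 214 CPM. Of them Klrb1c alone passed, in all 3 comparisons, with means of 10.8 CPM in young, 134 in aged and 71.4 in NR-treated HSC. No gene of the T cell, erythroid, granulocyte or monocyte lists was at 0 in all libraries of a group, whereas Dntt was at 0 in all NR-treated libraries. Young 3, the young library with the most Igkc, Ighm and Jchain, also had the highest granulocyte sum of all 15 libraries. Aged 5 and Aged 4 had erythroid sums of 5208 and 3123 CPM and granulocyte sums of 1418 and 1043 CPM, beside 548 and 4496 CPM of the 6 plasma cell transcripts. The part of such cells in the values of the members was not tested.

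**Figure D5:**
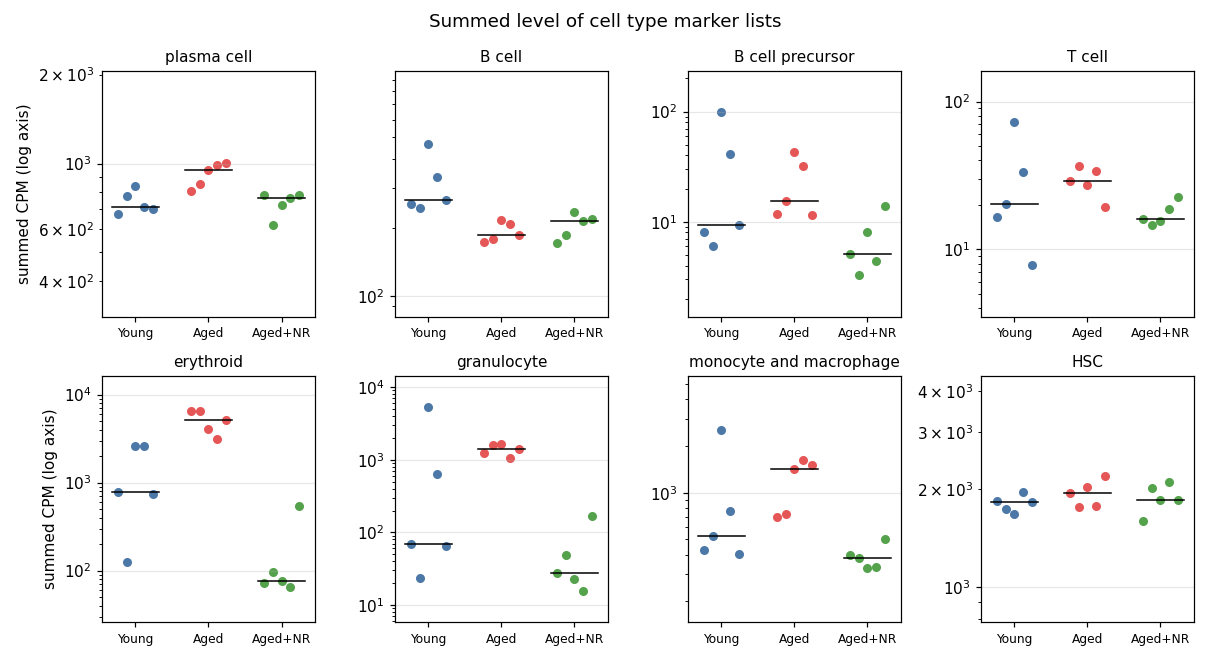
Summed CPM of 8 marker lists in each library, on log axes whose ranges differ between panels, with a line at the group median. The erythroid sums of aged libraries (3123 to 6461 CPM) lie above all others, the HSC sums lie between 1593 and 2191 CPM in every library, and Young 3 stands highest in the granulocyte panel.

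The members were last compared in how they varied within groups, as Pearson's r of log2 CPM over the 15 libraries after the group means were removed, a description without a test in which all points share their library and depth. Igkc varied most closely with Ighm (r = 0.97) and Jchain (0.92), less with Iglc1 (0.67), Ebf1 (0.59) and Ighg2b (0.42), and hardly with Cd79b (0.08) or Igha (-0.15). For the summed marker lists, r with Igkc was 0.61 for B cell precursors, 0.60 for granulocytes, 0.56 for the other immunoglobulin constant regions, 0.42 for B cells, 0.05 for the plasma cell genes outside the immunoglobulin loci and -0.49 for HSC genes. It was 0.54 for the variable segments, 0.47 for T cells, 0.47 for monocytes and macrophages and 0.45 for erythroid genes. Natural killer cells gave 0.39 and platelets 0.10, so such values were not particular to the B lineage. Outside the members, the genes of at least 5 CPM most like Igkc were Smim1 (0.85), Kctd12b (0.84), Clca3a1 (0.84), Carhsp1 (0.83), Ctdsp1 (0.82), Rab5c (0.82), Mgat1 (0.80) and Ppfia4 (0.79). With Cd79b in the place of Cd79a, which was not analysed, those most like it were Cse1l (0.86), Mrpl55 (0.85), Serp1 (0.84), Chst11 (0.84), Slc30a7 (0.83), Etfdh (0.83), Vps26a (0.82) and Gm8995 (0.82). No immunoglobulin or listed B cell gene was among either set of 8. That absence was in part fixed by the search and is no finding. The search left out the members, Ighm and Jchain among them, and genes under 5 CPM, such as Ighg3, Iglc3 and Iglv1.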

How the data were processed

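The deposited table holds raw read counts per gene without normalisation. The authors aligned 3′-biased reads, whose cDNA part was 72 bases long, to GRCm38 (STAR 2.4.2a in the submitters' processing notes), removed reads with duplicated 10 bp UMIs, counted the rest on GENCODE exons with featureCounts, and kept genes with over 5 reads and over 2 CPM in at least 2 samples. All 15 columns were used. From these counts, edgeR 4.0.16 (R 4.3.3) gave TMM-scaled CPM and a single quasi-likelihood fit across the 15 libraries, in which group was the sole term, with Benjamini-Hochberg adjustment over 16154 genes and a threshold of 0.05. For correlations, a prior count of 2 went into log2 CPM. Positions and sequences come from a GENCODE annotation of GRCm38 matched by gene name, a later release than the authors used. Members and gene lists were chosen with earlier results of these data known. The genes named are the members, at most 6 of each list by mean CPM, the 8 genes most like Igkc and Cd79b, and genes named because they passed or for their estimates. Results of 1 gene of the B cell list are not reported here. Fits were tested on simulated data. Alternatives were the likelihood ratio test, DESeq2 1.42.0, other scalings, fits of 2 groups, a stricter count filter, the replicate number as a block, and each library left out. Fits without the 2 young libraries with Y-linked counts, and the ratio without Cd79b, were added after the data were seen. Over 15 pairs of same-numbered libraries, the mean correlation of deviations from group means was 0.0021, so numbers did not pair them. Counts of libraries within a group differed by more than sampling noise. Figures were drawn with matplotlib 3.10.9.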

Additional observations from a re-analysis of the deposited data

Results flagged for a closer look

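The groups were searched for a library that stood far from the other 4, and there were 7 flags over the 27 groups searched. For normally distributed values chance flags about 1 in 20 groups, or 1.35 of 27. These CPM are skewed and the groups share libraries, so 1.35 is no fair measure for the 7. Young 3 was set apart for Igkc at 330.5 CPM (next highest young library 78.6 CPM), for Ighm at 273 CPM (next 61.8), for Jchain at 28.3 CPM (next 7.82) and for Cd79b at 84.0 CPM (next 61.3). These 4 values come from 1 library and are not separate findings, and Young 3 also had the highest granulocyte sum, 5316 CPM. In NR-treated HSC, library 1 was set apart for Jchain at 5.37 CPM (next 1.56) and library 5 for Igha at 1.63 CPM (next 0.596), the latter on 6 counts. Aged 5 was set apart for the log2 ratio of plasma cell to B cell counts, 2.53, where the next lowest aged library had 4.98.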

How the results depend on the processing

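The fall of Igkc, Iglc1, Ighg2b, Jchain and Ighm from Aged to Aged+NR kept its direction and stayed past the threshold in every alternative that tested the gene. The number of members called there was 6, Igha among them through a filter that only aged libraries passed, with 6 to 7 when each library was left out (7 where Ebf1 was added), and it moved to 2 where at least 10 counts were required in every library, since only Igkc, Ighm and Cd79b were then tested. For NR-treated against young HSC the 2 calls became 1 with that filter, again because Ebf1 was not tested, 1 with the replicate block, and 1 to 2 when each library was left out, in each of the last cases through loss of Ighm; the cause was not tested. Same-numbered libraries share only a number, and the replicate block took the genes called over the table from 1303 to 1048 for Aged+NR against Aged. The mean log2 ratio of plasma cell to B cell counts differed by 3.96 between Aged and Young, -5.14 between Aged+NR and Aged and -1.18 between Aged+NR and Young, and the last turned to 0.52 with Cd79b left out. The other 91 values for these counts and ratios stayed close to those reported. Calls in NR-treated or young HSC of Iglc1, Ighg2b, Igha and Igll1 are limited by depth, with 3 counts worth up to 1.41 CPM in a young or NR-treated library. The calls in the wider lists moved more, largely with single libraries: over the alternatives, the plasma cell list gave 1 to 5 calls for Aged+NR against Aged and 0 to 5 for Aged+NR against Young, and the B cell list gave 0 to 6 and 2 to 9.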
